A study of Homo sapiens with 4 samples.

Results

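The MAX network was examined in SK-MEL-28 cells, an established human melanoma cell line, as the transcript levels of 9 genes taken by symbol from a table of 25268 symbols. The 9 genes were MYC and MYCN, their shared partner MAX, and the MAX-bound antagonists MNT, MGA, MXD1, MXD3, MXD4 and MXI1. The cells had been transduced with a lentivirus that carried either the empty pTRIPZ vector (vector line) or a MYC gene behind a Tet-inducible promoter (MYC-inducible line), and both lines were selected with geneticin (G418). Each line was sampled without doxycycline (Dox) and after 54 h with Dox, as 1 RNA-Seq library per condition and 4 libraries in all. It is not stated whether either line is a clone. Values were FPKM, fragments per kilobase of transcript scaled to the mapped fragments of each library, so that levels of different genes could be set side by side within a library. Because no condition had a replicate, no p-value is given, and each difference is one between single cultures.

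MYC proteins are basic helix-loop-helix leucine zipper transcription factors that bind DNA only as heterodimers with MAX. The preferred site of MYC–MAX is the E-box CACGTG, where MYC recruits acetyltransferase complexes and raises transcription. MXD1, MXD3, MXD4, MXI1 and MNT bind MAX and the same site but recruit the SIN3 corepressor and histone deacetylases. MGA pairs with MAX inside a Polycomb repressor complex, PRC1.6. The network therefore depends on how much of each protein competes for MAX, and RNA levels give only the transcript side of that competition.

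The difference between 2 libraries was calculated on the scale of log2(FPKM + 0.1). Of the 9 genes, 7 averaged 1 FPKM or more over the libraries, as did 11147 of all symbols, which form the background for the counts given here. MGA fell just short with a mean of 0.982 FPKM, MXD1 just passed with 1.12 FPKM, and MYCN was essentially not detected. From the smallest values in the table the libraries held approximately 35100000 to 42100000 fragments, and the counting errors in log2 units given beside the differences follow from these depths and the annotated transcript length. They cover the sampling of fragments and not the variation between cultures. All 8 melanocyte markers examined (MITF, PMEL, MLANA, TYR, TYRP1, DCT, SOX10 and GPR143) had a mean of at least 1 FPKM, with a summed level from 4521 FPKM in MYC-inducible cells with Dox to 8034 FPKM in untreated vector cells. Most of that sum was PMEL, at 3394 and 6176 FPKM in these 2 libraries. The sums of the 4 markers each of keratinocytes, fibroblasts, leukocytes and endothelial cells were at most 18.2, 31.6, 1.75 and 0.427 FPKM, and 2, 1, 1 and 0 of them were listed at 0 in all libraries. Nearly all of the keratinocyte, fibroblast and leukocyte sums came from KRT10, LUM and LYZ, at up to 18.0, 31.5 and 1.75 FPKM. The lower melanocyte sum occurred in the same library as the network differences with Dox, and its part in them was not tested.

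The promoters of the network genes were searched for the E-box, the site that the network proteins share. RefSeq promoter windows on GRCh38.p14, from 250 bases before to 50 bases after a start site, were found for 8 of the 9 genes, all but MYC, as 13 windows. CACGTG, which reads the same on both strands, occurred in 2 of these windows, against 7.26% of all 35116 windows. The variant CACGCG, which reads CGCGTG on the other strand and can overlap it there, occurred in 3 member windows and in 11.4% of all windows, each window counted once. The variant CATGTG, which reads CACATG on the other strand, was in 0 of the 13 and in 11.1% of all. In MXD3 and MXI1 the CACGCG match reached the start site or lay after it. The 3 matches before a start site are shown here, with the matched letters in capitals and each sequence read 5′ to 3′ on the strand of the gene. A link between these matches and the differences with Dox was not tested. MNT is read from the minus strand of chr17:2401188-2401310 with its motif at position -193 from the start site, MXD4 from the minus strand of chr4:2262282-2262359 with its motif at -238, and MGA from the plus strand of chr15:41660324-41660404 with its motif at -21.
MNT: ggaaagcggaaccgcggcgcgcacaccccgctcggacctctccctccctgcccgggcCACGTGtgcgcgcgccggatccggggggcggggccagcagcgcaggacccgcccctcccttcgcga
MXD4: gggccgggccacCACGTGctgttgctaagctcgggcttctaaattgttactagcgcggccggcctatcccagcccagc
MGA: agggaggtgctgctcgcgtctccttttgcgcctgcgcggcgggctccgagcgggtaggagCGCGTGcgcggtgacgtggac

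MYC, the induced gene, lies on chromosome 8 of GRCh37 from 128747680 to 128755197 and was the most abundant transcript of the network in each library. It had 58.3 FPKM in untreated vector cells, 54.8 in vector cells with Dox, 76.5 in untreated MYC-inducible cells and 87.1 in MYC-inducible cells with Dox. Both MYC-inducible libraries were thus above both vector libraries, and a gap between the lines was already present before Dox. Without Dox the lines differed by 0.39 on the log2 scale (counting error 0.020), a difference that only 2.22% of the 11147 genes equalled or exceeded in the same comparison. Within MYC-inducible cells the value with Dox was 13.9% higher, a log2 difference of 0.19 (counting error 0.018) that 59.4% of genes equalled or exceeded there. In vector cells the log2 difference with Dox was -0.09 (counting error 0.023). With Dox in both, the lines differed by 0.67 (counting error 0.021), a difference that 11.0% of genes equalled or exceeded. MYC was then the only network gene past 1.5-fold, 1 of the 7 above 1 FPKM, against 15.1% of all genes. The table holds 1 value for MYC, so transcripts of the endogenous gene and of the transgene cannot be told apart in it. CASC11, a noncoding RNA on the opposite strand whose annotated span reaches a MYC exon, was at most 0.0385 FPKM.

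Targets of MYC were read beside MYC itself as a check of the labels. The lists were chosen with earlier results of these data known, so this check is not an independent one. Of 24 genes that MYC is known to activate, 21 were higher by at least 1.5-fold with Dox in MYC-inducible cells, against 5.90% of all genes. All 24 were higher there by any amount, beside 46.8% of all genes. The 24 include nucleolar factors such as NCL and NOP56 and the polyamine enzyme ODC1. Their median log2 difference was 0.81, against -0.03 over all genes tested, and it was 0.03 in vector cells, where none of the 24 passed 1.5-fold in the upward direction, against 0.709% of all genes. ODC1 was at 36.3 FPKM without and 96.1 FPKM with Dox in MYC-inducible cells, and at 32.8 and 42.2 FPKM in vector cells. Of 10 listed genes that MYC is known to repress, 7 had a mean of at least 1 FPKM. All 7 were lower with Dox in MYC-inducible cells, where 46.8% of all genes were higher, and their median was -0.49. Of the 7, CDKN1A, CDKN2B and NDRG1 (3 genes) passed 1.5-fold downward, against 8.85% of all genes. The median difference of either target list with Dox was thus larger in size than the 0.19 of MYC. Between the untreated lines 12 of the 24 activated genes were higher and 12 lower in MYC-inducible cells, beside 59.5% of all genes higher. Their median was 0.00, and 0 passed 1.5-fold, against 0.879% of all genes. Of the 7 repressed genes 6 were higher and 1 lower there, with a median of 0.04. The FPKM of MYC does not separate the endogenous gene from the transgene. How fully transgene transcripts enter it was not tested, so 0.19 need not be the size of the induction. For MYC-inducible cells with Dox, the paper reports increased MYC mRNA by RT-PCR and a more active E-box reporter.

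**Figure D1:**
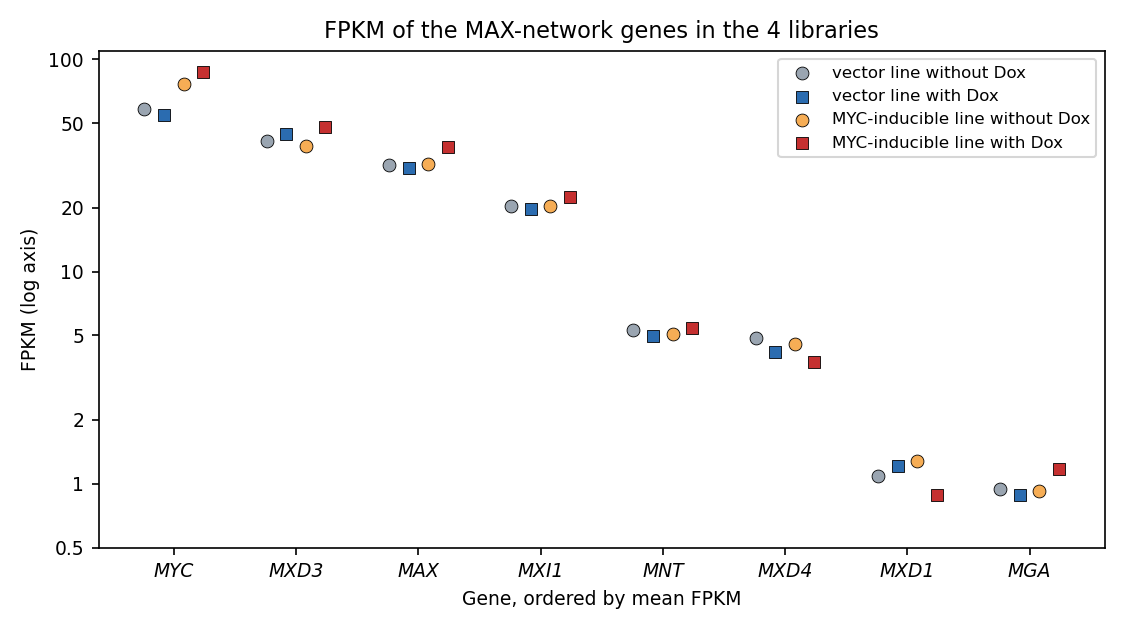
FPKM of 8 network genes on a log axis, with 1 point per library and genes ordered by their mean; MYCN is left out because it was at 0 in 3 libraries. MYC spans 54.8 to 87.1 FPKM, while the antagonists range from MXD3 at 39.0 to 47.9 FPKM down to MGA and MXD1 near 1 FPKM.

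MYCN, the neuronal paralog of MYC on chromosome 2 from 16080672 to 16087129, was listed at 0 in 3 libraries and at 0.0108 FPKM, about 0.993 fragments, in vector cells with Dox. MYCL, the third paralog and not among the 9 genes, had 0.279, 0.306, 0.160 and 0.355 FPKM in the libraries in the order vector without Dox, vector with Dox, MYC-inducible without Dox and MYC-inducible with Dox. MYC was thus the paralog that accounted for nearly all MYC-family transcript in these cells.

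MAX, on chromosome 14 from 65472892 to 65569413, is the partner that the other proteins of the network share. It had 31.8 FPKM in untreated vector cells, 30.6 in vector cells with Dox, 32.2 in untreated MYC-inducible cells and 38.7 in MYC-inducible cells with Dox. The first 3 values lay between 30.6 and 32.2 FPKM and the fourth stood above them. The log2 difference with Dox was 0.26 (counting error 0.038) in MYC-inducible cells and -0.06 (counting error 0.042) in vector cells. A difference as large as 0.26 was found for 46.9% of genes in MYC-inducible cells, so that MAX moved about as far as the typical gene there. Between the untreated lines MAX differed by 0.02, unlike MYC. Annotated genes on the opposite strand, CHURC1-FNTB and FNTB, span part of MAX without reaching an exon of its canonical transcript, and whether the counting used strand is not stated. Opposite-strand long noncoding RNAs without a value in the table reach an exon of MAX, MNT and MXI1.

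MXD3 and MXI1 made up most of the antagonist transcript. MXD3, an antagonist described in proliferating cells, lies on chromosome 5 from 176728462 to 176739758. It had 41.0 FPKM in untreated vector cells, 44.2 in vector cells with Dox, 39.0 in untreated MYC-inducible cells and 47.9 in MYC-inducible cells with Dox. It was higher with Dox in both lines, by 0.30 (counting error 0.047) in MYC-inducible cells and by 0.11 (counting error 0.050) in vector cells. The gene span also overlaps RAB24 on the same strand, at up to 31.4 FPKM, and PRELID1 on the opposite strand, at up to 279.7 FPKM. Neither reaches an exon of the canonical MXD3 transcript.

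MXI1, on chromosome 10 from 111967363 to 112047123, encodes the antagonist also known as MXD2. It had 20.4 FPKM in both untreated libraries, 19.7 FPKM in vector cells with Dox and 22.4 FPKM in MYC-inducible cells with Dox. The log2 difference with Dox was 0.13 (counting error 0.037) in MYC-inducible cells, where 70.5% of genes moved at least as far, and -0.05 (counting error 0.040) in vector cells. MXI1 was therefore the more even of these antagonists across the libraries.

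MNT, a broadly expressed repressor held to be the main counterpart of MYC in cycling cells, lies on chromosome 17 from 2287367 to 2304398. Its values were 5.30 and 4.96 FPKM in vector cells without and with Dox, and 5.08 and 5.45 FPKM in MYC-inducible cells without and with Dox. The log2 range over the 4 libraries was 0.13, the smallest of the members that passed 1 FPKM, and 88.4% of all genes had a range at least as wide. Neither difference with Dox, 0.10 and -0.09, was as large as 2 counting errors (counting errors 0.063 and 0.067).

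MXD4, on chromosome 4 from 2249159 to 2263836, encodes an antagonist associated with differentiation. It had 4.86 FPKM in untreated vector cells, 4.19 in vector cells with Dox, 4.55 in untreated MYC-inducible cells and 3.76 in MYC-inducible cells with Dox. It was lower with Dox in both lines and by similar amounts, -0.27 in MYC-inducible cells and -0.21 in vector cells (counting errors 0.080 and 0.081). A shift of that size was common in MYC-inducible cells, where 46.2% of genes moved at least as far, and less so in vector cells, where 10.2% did. The difference between the lines' shifts was -0.06 (counting error 0.114).

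MXD1, the founding MXD protein, is induced when many cell types differentiate and lies on chromosome 2 from 70124820 to 70170077. It had 1.09 FPKM in untreated vector cells, 1.21 in vector cells with Dox, 1.28 in untreated MYC-inducible cells and 0.886 in MYC-inducible cells with Dox. The library of MYC-inducible cells with Dox was the lowest and the other 3 lay above it. The log2 difference with Dox was -0.49 (counting error 0.133) in MYC-inducible cells and 0.14 (counting error 0.133) in vector cells. As the gene was low, with approximately 193 to 299 fragments per library, the size depended on the pseudocount and was -0.27 when 1 FPKM was added in place of 0.1. With 0.1 FPKM added it was the largest in size of the 9 members, and with 1 FPKM added that of MXD3, at 0.29, was larger. In MYC-inducible cells 21.0% of genes moved at least as far. SNRNP27, at up to 32.8 FPKM, overlaps the MXD1 span on the same strand without reaching an exon of the canonical transcript.

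MGA, on chromosome 15 from 41913332 to 42065279, encodes a very large MAX partner. Its values were 0.944 and 0.887 FPKM in vector cells without and with Dox, and 0.929 and 1.17 FPKM in MYC-inducible cells without and with Dox. The first 3 of these were close together and the fourth was higher. Because the transcript is long, these values still correspond to approximately 380 to 561 fragments. The log2 difference with Dox was 0.30 (counting error 0.090) in MYC-inducible cells and -0.08 (counting error 0.101) in vector cells, and the first was 0.17 with a pseudocount of 1 FPKM.

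**Figure D2:**
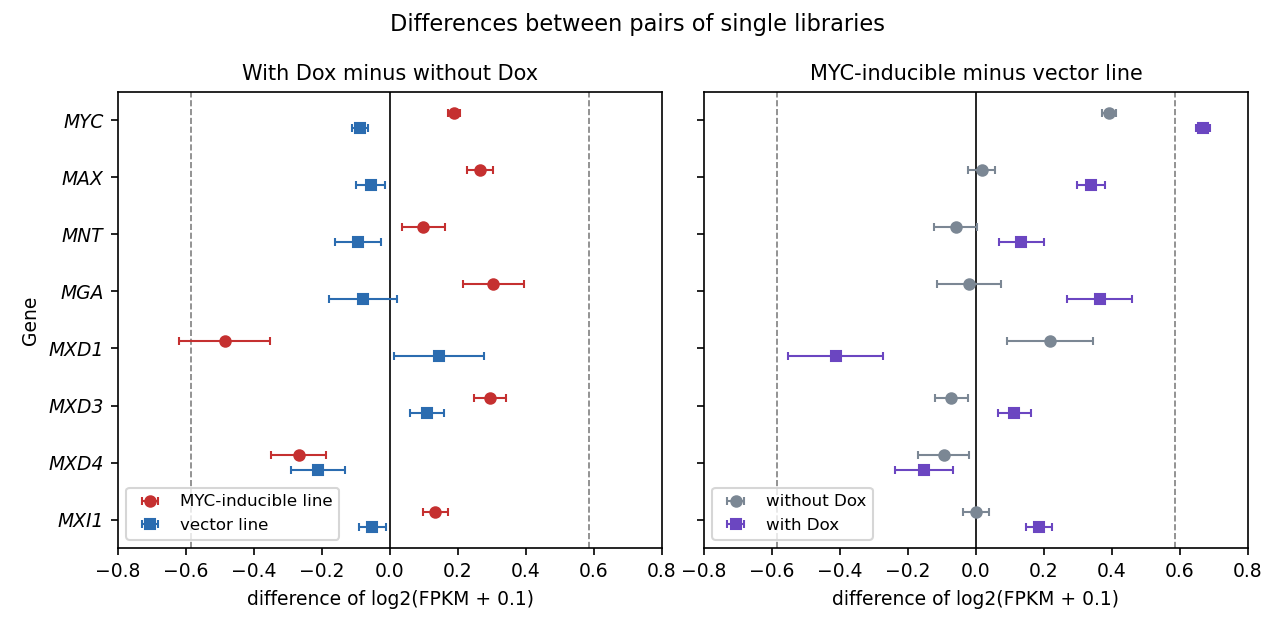
Differences of log2(FPKM + 0.1) for 8 network genes, with Dox against without Dox in each line (left) and between the lines without and with Dox (right); bars are approximate counting errors and dashed lines mark 1.5-fold. MYC between the lines with Dox, at 0.67, is the 1 point outside the dashed lines, and MXD1 with Dox in MYC-inducible cells lies at -0.49.

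With Dox in MYC-inducible cells the network genes moved about as far as other genes did. Of the 7 members above 1 FPKM, 0 passed 1.5-fold, against 14.7% of all genes, and their median absolute log2 difference was 0.26, beside 0.24 for all genes. There 5 members were higher and 2 were lower, beside 46.8% of all genes that were higher. In vector cells 0 of 7 passed 1.5-fold with Dox, against 1.15% of all genes, and 2 were higher and 5 lower, beside 54.2% of all genes higher.

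Between the untreated lines 0 of 7 members passed 1.5-fold, against 0.879% of all genes, and 4 were higher in MYC-inducible cells, beside 59.5% of all genes. For MAX and MXI1, at 0.02 and 0.00, the sign turned when each library was scaled by its median ratio, which left 2 higher. MYC at 0.39 and MXD1 at 0.22 were the widest apart. Between the lines with Dox 1 of 7 passed, MYC, against 15.1% of all genes, and 5 were higher in MYC-inducible cells, beside 49.2% of all genes. This last comparison shares its libraries with those of Dox within each line, so its values are not separate evidence. With a threshold at which the higher value exceeded the lower by 25%, the members past it were MXD1 with Dox in MYC-inducible cells (1 of 7, against 38.3% of all genes), MYC between the untreated lines (1 of 7, against 3.61%), and MYC, MAX and MXD1 between the lines with Dox (3 of 7, against 38.5%).

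The difference with Dox in MYC-inducible cells minus that in vector cells was above 0 for 5 members, beside 45.5% of all genes. Of the 7 members 1 passed 1.5-fold, against 15.6% of all genes in either direction and 9.72% in the downward direction. This was MXD1 at -0.63 (counting error 0.188), or -0.36 with a pseudocount of 1 FPKM, with which 0 of the 7 passed 1.5-fold.

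The balance of MYC with its partners was compared within each library from the FPKM values. The FPKM of MYC in these ratios does not separate the endogenous gene from the transgene. How fully transgene transcripts enter it was not tested, so the ratios need not reflect all MYC transcript. MYC exceeded MAX 1.83-fold and 1.79-fold in vector cells without and with Dox, and 2.37-fold and 2.25-fold in MYC-inducible cells without and with Dox. MYC was higher relative to MAX in MYC-inducible cells, and within that line the ratio with Dox was slightly lower, by a log2 difference of -0.08, since MAX was higher as well. The 6 antagonists summed to 73.6, 75.2, 71.2 and 81.5 FPKM in the same order. MYC was 0.792 and 0.729 times this sum in vector cells, and 1.07 times the sum in MYC-inducible cells both without and with Dox. This ratio therefore crossed 1 between the lines and not between the Dox conditions. Its log2 difference with Dox was -0.01 in MYC-inducible cells and -0.12 in vector cells. With MXD3 left out of the sum, MYC was 1.79, 1.77, 2.37 and 2.59 times the rest in the same order. That ratio was above 1 in each library and higher with Dox in MYC-inducible cells, so the crossing of 1 depends on MXD3.

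MXD3 supplied 54.7% to 58.9% of the antagonist sum and MXI1 supplied 26.2% to 28.6%. The share of the other 4 antagonists was 16.6%, 14.96%, 16.6% and 13.8% in the same order as above, lowest in MYC-inducible cells with Dox. MXD3 stood 37.7-fold, 36.5-fold and 30.4-fold above MXD1 in the first 3 libraries and 54.1-fold above it in MYC-inducible cells with Dox. MXD3 stood above MXD4 8.43-fold without and 10.6-fold with Dox in vector cells, and 8.57-fold without and 12.7-fold with Dox in MYC-inducible cells. The ratio of MXD3 to MXD4 and the share of MXD3 were thus higher with Dox in both lines, and the share was highest, at 58.9%, in vector cells with Dox.

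**Figure D3:**
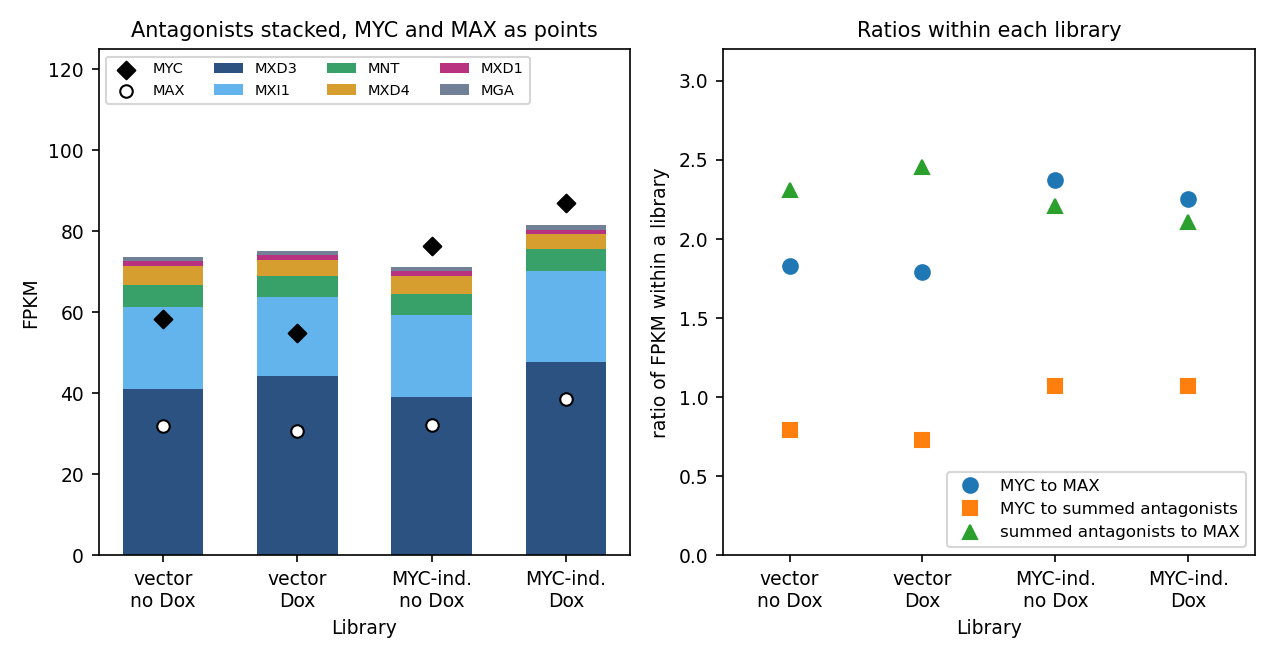
Left, FPKM of the 6 antagonists stacked for each library, with MYC and MAX as points; right, ratios of FPKM within each library. MYC lies below the antagonist stack in both vector libraries and above it in both MYC-inducible libraries, at 0.729 to 1.07 times the summed antagonists.

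The MLX arm, in which MLX takes the place of MAX, had 2 of its 3 genes above 1 FPKM. MLX had 20.3, 21.7, 20.03 and 24.04 FPKM and MLXIP, which encodes MondoA, had 9.80, 10.5, 10.5 and 11.8 FPKM in the same order of libraries. The highest library of each was MYC-inducible cells with Dox. MLXIPL was listed at 0 in all 4.

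The proteins through which the network acts were examined as lists. Of 14 genes listed as coactivators or other partners of MYC, 12 were higher with Dox in MYC-inducible cells, beside 46.8% of all genes. The median log2 difference of the 14 was 0.13, against -0.03 for all genes. Of the 14, 1 passed 1.5-fold upward, against 5.90% of all genes. The gene past the threshold was RUVBL1, an ATPase of chromatin remodelling complexes, at 43.4 FPKM without and 76.7 FPKM with Dox, a log2 difference of 0.82, while in vector cells it had 42.5 and 45.2 FPKM. In vector cells 12 of the 14 were also higher with Dox, beside 54.2% of all genes, with a median of 0.07.

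The SIN3 corepressor partners of the antagonists showed no member past 1.5-fold among 13 measured genes with Dox in MYC-inducible cells, against 14.7% of all genes. Of these 8 were higher and 5 lower, beside 46.8% of all genes higher, and their median was 0.08, beside -0.03 for all genes. In vector cells 9 were higher and 4 lower with Dox, beside 54.2% of all genes higher, with a median of 0.02. SIN3A itself had 3.51 FPKM without and 3.71 FPKM with Dox in MYC-inducible cells, and SIN3B had 6.97 and 6.65 FPKM. Of 15 measured partners of MGA in PRC1.6, 13 were higher and 2 lower with Dox in MYC-inducible cells, beside 46.8% of all genes higher, with a median of 0.18, and 0 passed 1.5-fold, against 14.7% of all genes. In vector cells 8 of these were higher and 7 lower, beside 54.2% of all genes higher, with a median of 0.00. The 2 corepressor lists share HDAC1 and HDAC2.

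Factors that control MYC protein stability were mixed. Of 14 measured genes 9 were higher and 5 lower with Dox in MYC-inducible cells, beside 46.8% of all genes higher, with a median of 0.09. In vector cells 9 were also higher and 5 lower with Dox, beside 54.2% of all genes higher, with a median of 0.05. In MYC-inducible cells 1 of the 14 passed 1.5-fold in each direction. This was near the 5.90% of all genes that passed upward and the 8.85% that passed downward. SKP2, an F-box protein of a ubiquitin ligase that acts on MYC, had 7.99 FPKM without and 12.2 FPKM with Dox, a log2 difference of 0.60, and in vector cells it had 7.98 and 7.69 FPKM. FBXO32, another F-box protein, had 19.3 and 12.4 FPKM in MYC-inducible cells, a difference of -0.63, and 18.0 and 17.2 FPKM in vector cells.

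Other basic helix-loop-helix factors that bind E-boxes were mostly lower with Dox in MYC-inducible cells. Of 11 measured genes 9 were lower and 2 higher, beside 46.8% of all genes higher. Their median was -0.33, against -0.03 for all genes. In vector cells 4 were lower and 7 higher, beside 54.2% of all genes higher, with a median of 0.03. In MYC-inducible cells 2 of them passed 1.5-fold downward, against 8.85% of all genes, and 1 upward, against 5.90%. BHLHE40, a transcriptional repressor of the circadian system, had 27.9 FPKM without and 15.95 FPKM with Dox, a difference of -0.80, and in vector cells it had 27.7 and 23.0 FPKM. BHLHE41, its close paralog, had 33.5 and 21.2 FPKM in MYC-inducible cells and 31.5 and 32.1 FPKM in vector cells. TFAP4, which is known as a direct target of MYC, had 8.67 and 13.7 FPKM in MYC-inducible cells, a difference of 0.65, and 8.60 and 8.26 FPKM in vector cells. The list also holds MITF, a melanocyte marker, at 90.0 and 67.2 FPKM.

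**Figure D4:**
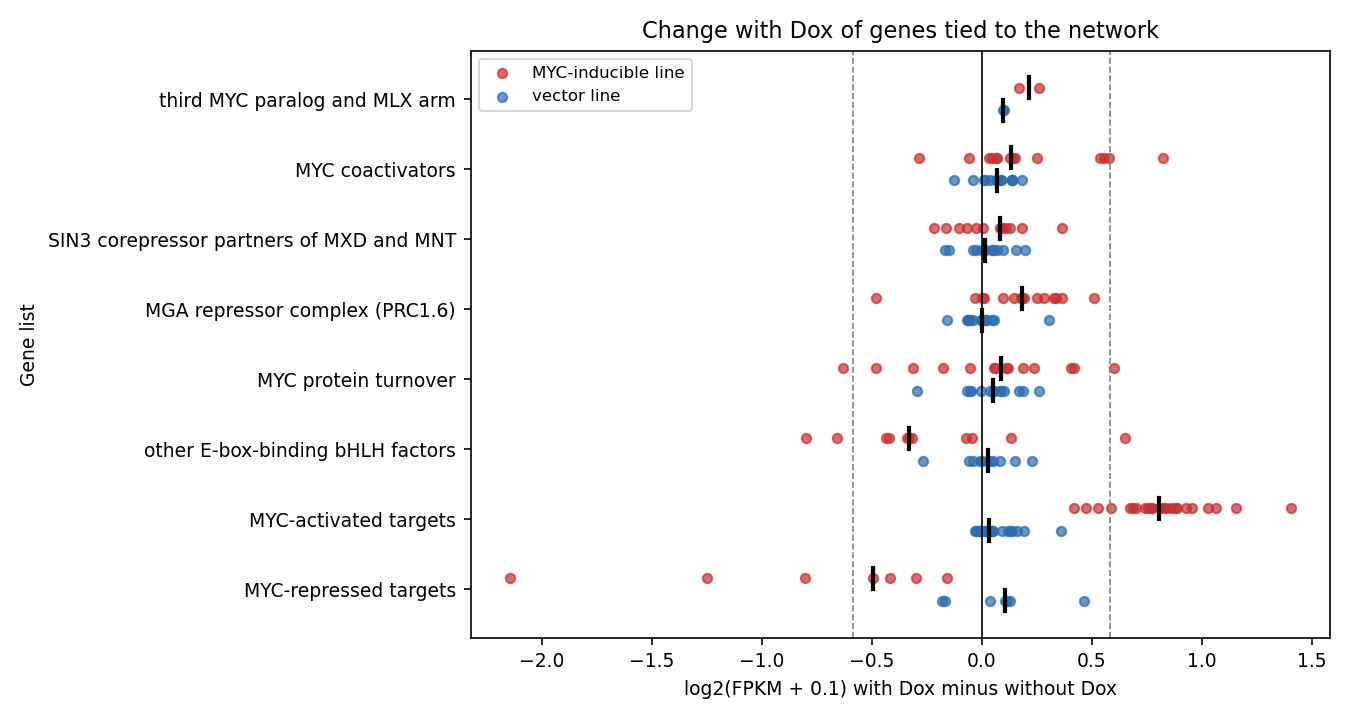
Log2 differences with Dox for the measured genes of 8 lists in MYC-inducible cells and in vector cells; each point is a gene, short black bars are list medians and dashed lines mark 1.5-fold. The MYC-activated targets lie to the right in MYC-inducible cells, with a median of 0.81, while the coactivator, corepressor and turnover lists have medians of 0.08 to 0.18.

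Of the noncoding neighbours of MYC, PVT1 had 3.14 and 3.63 FPKM in vector cells without and with Dox and 3.29 and 4.02 FPKM in MYC-inducible cells. It was higher with Dox in both lines, by 0.21 and 0.28. CCAT1 was listed at 0 in all libraries.

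The genes whose pattern over the 4 libraries was closest to that of MYC, by Euclidean distance of log2 values centred on each gene's mean among 7473 genes of at least 5 FPKM, were UBL4A, LOC400043 and HSF2, at distances of 0.119, 0.123 and 0.124. UBL4A had 32.6, 31.9, 40.3 and 46.1 FPKM in the same order of libraries. Its higher level in the untreated MYC-inducible line follows from its choice by likeness to MYC over these values. Among the 3 genes closest to MXD1 were EML2 and RASSF8-AS1, at distances of 0.029 and 0.046. EML2 had 20.5, 22.8, 23.4 and 16.7 FPKM. With 4 points per gene such likeness is a description only.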

How the data were processed

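Total RNA of 4 SK-MEL-28 cultures was sequenced, 1 library per condition. The values in the deposited table are FPKM for each gene symbol, computed by the authors. The submitters' processing notes name TopHat2 version 2.0.14, Cufflinks, hg19 and GRCh37, and the annotation and strand setting are not given in the sources used here. Of 27032 rows, 1 had no gene name and was dropped, and 609 symbols with several rows were summed; no network gene had several rows. Differences of log2(FPKM + 0.1) were calculated between pairs of libraries, which understates the change of low genes. FPKM are not counts and no condition had a replicate, so no test was run; a gene was counted at 1.5-fold among those with a mean of at least 1 FPKM.

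Relative depth was the commonest ratio between libraries among genes under 0.05 FPKM, and was 0.897 to 1.08 of that of untreated vector cells. Of 2806 genes above 0 in at least 3 libraries and under 0.2 FPKM in all, 58.5% had values at whole multiples, up to 12, of a single step within 1.2%. The step in 160 genes with 1 annotated transcript of at least 1500 bases gave the approximate depth, with quartiles of 34300000 and 40800000 fragments in untreated vector cells. Gene positions and transcript lengths came from GENCODE release 44 on GRCh37, and promoter sequences from RefSeq on GRCh38.p14.

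The members and lists were chosen with earlier results of these data known. Named genes were the 9 members, genes of the pathway and locus lists past 1.5-fold with Dox in MYC-inducible cells (at most 4 per list), and the 3 genes most like MYC and most like the member that differed most, of which 1 is not reported here; other genes of the lists were named as examples after their values were seen. The alternatives were pseudocounts of 1 and 0.01, other filters and fold thresholds, 3 scalings, the highest row per symbol, and vector cells with Dox as the reference. The calculation was tested on simulated data. Calculations used pandas 2.3.3 and numpy 2.4.6 under Python 3.11.15, and plots matplotlib 3.10.9.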

Additional observations from a re-analysis of the deposited data

Results flagged for a closer look

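For 5 of the 7 members above 1 FPKM the difference with Dox had opposite signs in the 2 lines. In vector cells it was -0.09 for MYC (counting error 0.023), -0.06 for MAX (0.042) and -0.09 for MNT (0.067). For MXI1 it was -0.05 (0.040) and for MXD1 0.14 (0.133). All but that of MYC were smaller than 2 counting errors, so their signs in vector cells are uncertain. The MYC-inducible minus the vector value was 0.28 for MYC, 0.32 for MAX, 0.19 for MNT, 0.19 for MXI1 and -0.63 for MXD1 on the log2 scale. These differences were not tested, as each rests on 4 single libraries. Opposite signs were found for 45.4% of the 11147 genes, so a difference of sign is common here.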

How the results depend on the processing

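No paired analysis was possible because every condition was a single library. The summary results were recalculated 99 times, and 94 of these values stayed within 0.11 on the log2 scale, the robust SD over genes with Dox in the vector line, or within 1.5 times for counts. The other 5 depended on the threshold or the reference. At a threshold of 25% the number of members past it was 1 with Dox in MYC-inducible cells, 1 between the untreated lines and 3 between the lines with Dox, and at 2-fold it was 0 between the lines with Dox. Against vector cells with Dox as the reference, the log2 difference of MYC was 0.67. Some recalculations could not change a value. No network gene had several rows, so the highest row left each member as it was, and a scaling cancels within a ratio of 2 genes. Some results were also smaller in size than 0.11, such as -0.08 for MYC to MAX with Dox in MYC-inducible cells. The counts of unchanged values are thus no measure of how stable such small differences are. Of 270 recalculated values for single members, 12 moved further, for MYCN, MGA and MXD1, and each under another pseudocount. The 3 changes of sign were for MAX and MXI1 between the untreated lines, at -0.01 for MAX under the median ratio and -0.03 and -0.01 for MXI1 under the median ratio and the upper quartile. Depth limits MXD1 and MYCN most.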
